A study of Homo sapiens with 38 samples.

Results

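WDR82, MEN1 and 8 further genes encode subunits of the COMPASS family of histone methyltransferases. They comprise the SETD1-specific subunits WDR82, SETD1A, SETD1B and CXXC1, the MLL1-side subunits MEN1 and KMT2A, and the shared core subunits ASH2L, WDR5, RBBP5 and DPY30. These 10 genes were followed guide by guide in CRISPR knockout screens of Hep3B and SNU-398, human hepatocellular carcinoma (HCC) lines, and by RNA level in Hep3B. They were targeted by 38 of the 66890 guides counted in Hep3B and by 40 of the 66582 guides counted in SNU-398. All 10 were found among the 18029 and 18036 genes of these tables and among the 58735 genes of the RNA-seq table. The genes were picked by name with the inhibitor and vehicle values of these screens known, so those values are given as a description, without a test.

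COMPASS complexes place methyl groups on lysine 4 of histone H3, a mark of active promoters and enhancers. A catalytic subunit of the SETD1 or MLL type sits on a core of WDR5, RBBP5, ASH2L and DPY30, which the catalytic subunit needs for full activity. WDR82 and CXXC1 belong to the SETD1 complexes, where they help bring the enzyme to transcribed genes and CpG-rich promoters. Menin, the MEN1 product, tethers the MLL1 and MLL2 enzymes to chromatin and is encoded by a tumour suppressor gene of endocrine glands.

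In the screens, Cas9-expressing cells carried the TKOv3 guide library. Each line was divided after puromycin selection into 8 groups of 2 libraries. Of these, 6 groups received Sorafenib, Regorafenib, Lenvatinib, Erastin, Abemaciclib or Palbociclib for 14 days, at a dose stated to inhibit by 20%. The T1 group was taken as DMSO vehicle over the same time, since the other groups are named in the labels, and T0 was the baseline. No source says that the libraries of a screen group came from separate cultures, so that a p-value reflects only how much such libraries vary, and that variation may be technical. RNA-seq covered 3 PSTK-KO and 3 control libraries of Hep3B, described as biological replicates, with PSTK removed by Cas9 and paired guides.

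Screen libraries held 11198022 to 46376708 counts, so that 3 counts, the level a count of 0 allows, were 0.0647 to 0.268 CPM (a guide's counts scaled to the total of its library). Guides were unevenly retained. No count was found for 43.8% to 52.8% of guides in the inhibitor libraries of Hep3B and 38.7% to 39.4% in its T1 libraries, against 4.34% to 6.43% in its T0 libraries. In SNU-398 the shares were 22.5% to 40.9%, 25.3% to 29.3% and 10.7% to 12.6% in these groups. Between 77.2% and 97.4% of the nonzero counts of a library were even numbers. A mean T1 count of at least 30 was reached by 19 and 17 of the guides to the 10 genes, and by 43.3% of all guides in each line. Erastin library 2 of SNU-398 stood apart. Over 64186 shared guides its correlation with a Hep3B T1 library was r = 0.952, against 0.877 to 0.917 for the other SNU-398 libraries of day 14. With SNU-398 T1 library 1 its correlation was 0.948, close to the 0.947 of Erastin library 1, so it was about equally like T1 of both lines. With its own group partner it was 0.947, against at least 0.988 for the other same-group pairs of that line. NormZ with Erastin in SNU-398 is therefore given with and without it.

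NormZ sums the scaled log2 ratios of all guides to a gene, inhibitor library over T1 library of the same number. It is negative for resisters, whose guides were fewer under the inhibitor. A gene was counted as below T1 at a one-sided p under 0.01 and as above at the same level on the other side. Of the 120 values of the 10 genes, 24 were below T1 and 1 was above. Over all genes in both tables, 1.68% of values were below and 0.839% above. In Hep3B, 13 of 60 values were below and 1 was above, beside 1.76% and 0.827% of all values. In SNU-398, 11 of 60 were below and none above, beside 1.6% and 0.851% of all values. The median NormZ of the 10 genes was -0.89, against 0.05 for all genes. The values below T1 lay mostly with WDR82 and MEN1, and the other 8 genes had 6 of 96. By role, the SETD1-specific subunits had 10 of 48 values below, all of WDR82, and the shared core 3 of 48, all of RBBP5. In the core, only 1 guide of WDR5, in Hep3B, and 0 of DPY30 reached a mean T1 count of at least 30. Their values had little room to fall, so the roles cannot be compared by these counts. The MLL1-side subunits had 11 of 24, of which 8 were of MEN1. The 6 inhibitors of a line were set against the same 2 T1 libraries, so their values are not independent of each other.

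**Figure D1:**
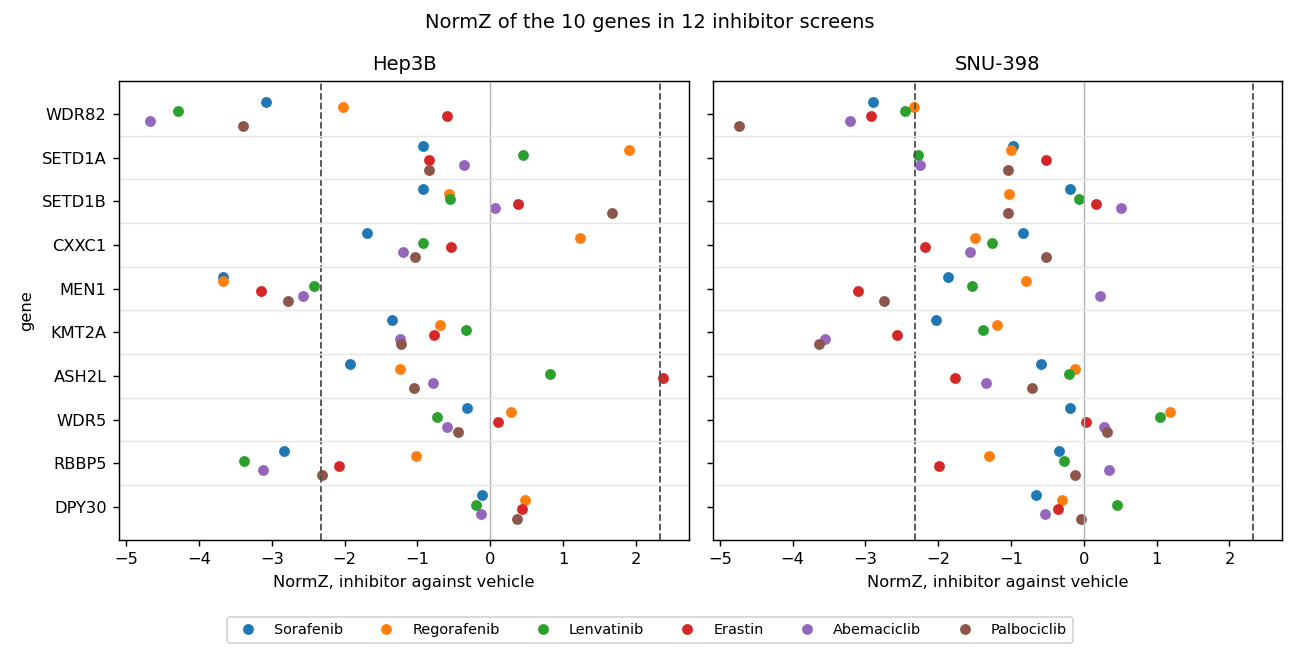
NormZ of the 10 genes in each inhibitor screen of Hep3B and SNU-398, with genes grouped by role and values below 0 standing for fewer guides under the inhibitor than in T1. WDR82 was past the threshold in 10 of 12 screens and MEN1 in 8, while SETD1A, SETD1B, CXXC1, WDR5 and DPY30 were past it in none. WDR5 and DPY30 had few counts in T1, which left their values little room to fall.

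WDR82, on chromosome 3 (52254421 to 52288020, minus strand, GRCh38), encodes a WD-repeat subunit that links SETD1 enzymes to RNA polymerase II. In Hep3B its NormZ was -3.08 with Sorafenib, -2.02 with Regorafenib, -4.29 with Lenvatinib, -0.60 with Erastin, -4.67 with Abemaciclib and -3.40 with Palbociclib. In SNU-398 it was -2.90, -2.34, -2.45, -2.93, -3.21 and -4.74 in the same order of inhibitors. It was thus below T1 in 10 of 12 screens, missing the threshold with Regorafenib and Erastin in Hep3B. Below T1 in 3 or more screens were 1.89% of all genes. Just past the threshold stood Regorafenib in SNU-398, and the nearest value of WDR82 outside it was Regorafenib in Hep3B. Without Erastin library 2, the SNU-398 Erastin value was -2.40.

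The table of Hep3B held 3 guides to WDR82, of which guides 3 and 4 were well counted. Guide 4 was at 0 CPM in both Lenvatinib and both Abemaciclib libraries, against 9.94 and 9.42 CPM in T1, from 244 and 114 counts. With 3 counts allowed over both libraries, it was at least 108-fold lower with Lenvatinib and at least 120-fold lower with Abemaciclib. Only 0.045% and 0.052% of all well-counted guides had ratios as low in these groups, and 0 of 55 control guides. The same guide had 0.089 and 0.908 CPM with Sorafenib, 1.27 and 0.714 with Palbociclib, 3.33 and 4.55 with Regorafenib and 5.71 and 7.55 with Erastin. Every inhibitor library lay below both T1 libraries, with Erastin the nearest to them. Guide 3 followed the same order at the low end, with 0.165 and 0.464 CPM under Abemaciclib, 1.59 and 0.659 under Lenvatinib and 1.42 and 1.21 under Sorafenib. It had 4.22 and 2.5 CPM with Palbociclib, 5.23 and 6.96 with Regorafenib and 11 and 9.12 with Erastin, against 12.2 and 13.2 in T1. Guide 1 had no count in any of the 12 inhibitor libraries and was barely counted in T1, at 0.326 and 0.331 CPM, so that it carries little weight.

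In SNU-398, guides 3 and 4 of WDR82 were again the well-counted ones. Guide 3 had 2.64 and 3.96 CPM with Palbociclib, 3.17 and 3.07 with Lenvatinib and 5.18 and 6.45 with Sorafenib, against 12.1 and 11.8 CPM in T1. It had 6.16 and 7.46 CPM with Regorafenib, 6.48 and 5.01 with Erastin and 7.66 and 7.41 with Abemaciclib. The guide was therefore lower in all 12 inhibitor libraries, and the ranges of inhibitor and T1 libraries did not overlap. Guide 4 had 0.660 and 0.285 CPM with Sorafenib, 1.45 and 0.410 with Palbociclib, 0.8 and 1.67 with Erastin and 1.45 and 0.861 with Regorafenib, against 5.0 and 5.71 CPM in T1. Lenvatinib left 2.75 and 1.61 CPM and Abemaciclib 1.93 and 2.15 CPM. Counted by guide and inhibitor, WDR82 was below T1 in both libraries in 12 of 12 cases in each line. In Hep3B this was also so in all cases of MEN1 (18 of 18), RBBP5 (18 of 18) and WDR5 (6 of 6, from 1 guide). Of all well-counted guides, 56.3% of cases in Hep3B and 44.2% in SNU-398 were below in both libraries, and of control guides 47.9% and 37.9%. All cases of a line share its T1 libraries and are not independent, so these counts only describe the guides.

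**Figure D2:**
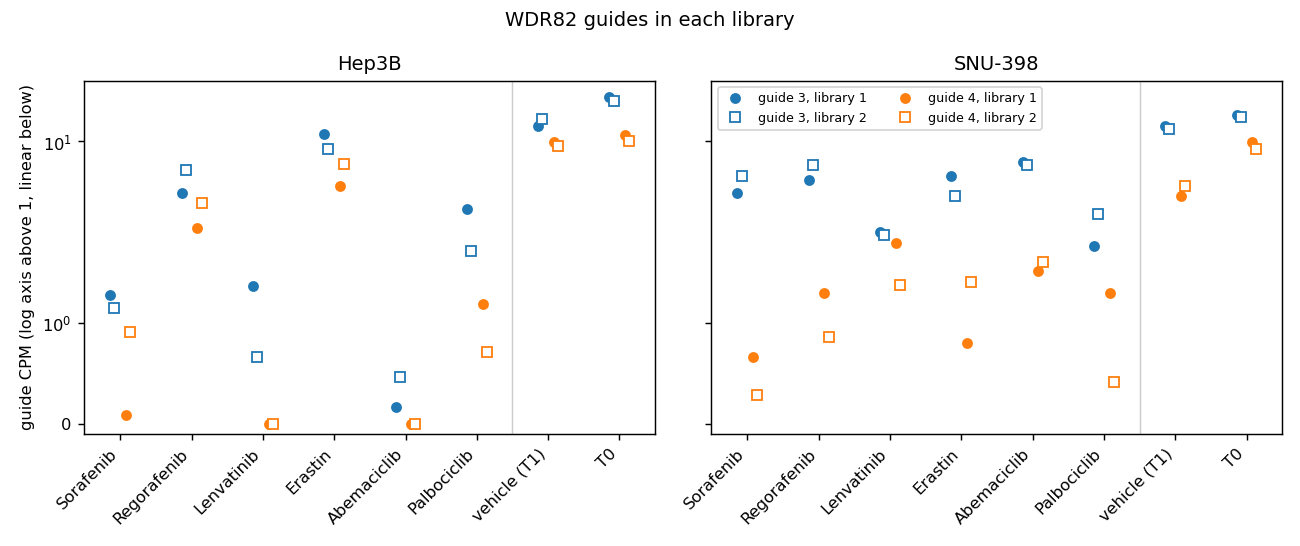
CPM of the well-counted WDR82 guides in every screen library of Hep3B and SNU-398, inhibitor groups first and then T1 and T0, each point being 1 library. The CPM axis is logarithmic above 1 and linear below it. For each guide all inhibitor libraries lie below the T1 libraries, and guide 4 of Hep3B is at 0 with Lenvatinib and Abemaciclib.

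MEN1, on chromosome 11 (64803510 to 64811294, minus strand), was below T1 in all 6 screens of Hep3B and in 2 of SNU-398. Its Hep3B NormZ was -3.67 with Sorafenib, -3.67 with Regorafenib, -2.42 with Lenvatinib, -3.14 with Erastin, -2.58 with Abemaciclib and -2.78 with Palbociclib. In SNU-398 it was -1.87, -0.79, -1.54, -3.11, 0.22 and -2.75 in that order, past the threshold with Erastin and Palbociclib. The SNU-398 Erastin value without library 2 was -2.89. With only guides that had a mean T1 count of at least 30, MEN1 was below in 4 screens, all in Hep3B, and with a pseudocount of 1 or with median-of-ratios scaling in 6.

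Among the well-counted MEN1 guides of Hep3B, guide 4 was lowest relative to T1 with every inhibitor but Abemaciclib, where guide 2 was lower. It had 0 and 0.151 CPM with Sorafenib, 0.985 and 1.07 with Regorafenib, 0.936 and 1.15 with Lenvatinib and 0.981 and 0.943 with Erastin, against 11.9 and 12.6 CPM in T1. Abemaciclib left 2.88 and 3.87 CPM and Palbociclib 3.59 and 4.47 CPM. Its Sorafenib ratio was -4.48 on the log2 scale, and 0.0554% of all well-counted guides were as low. Guide 2 was lowest with Abemaciclib, at 5.52 and 4.95 CPM, and with Sorafenib, at 8.45 and 6.96 CPM, against 24.8 and 25.8 CPM in T1. Guide 1 held 89.2% of the MEN1 counts in T1 and had 208 to 274 CPM over the inhibitor libraries, against 309 and 310 CPM in T1. All 18 cases of guide and inhibitor were below T1 in both libraries in Hep3B, and 10 of 18 in SNU-398.

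The guides of MEN1 in SNU-398 lay nearer to T1. Guide 1 had 212 to 299 CPM over the inhibitor libraries, against 283 and 291 CPM in T1, and the ranges overlapped. Guide 4 had 4.18 and 5.33 CPM with Palbociclib and 11.5 and 11.3 CPM with Abemaciclib, on either side of the 8.19 and 7.01 CPM of T1. Guide 2 had 15.7 to 37.7 CPM, against 37.2 and 31.5 CPM in T1. No test compared MEN1 between the lines.

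**Figure D3:**
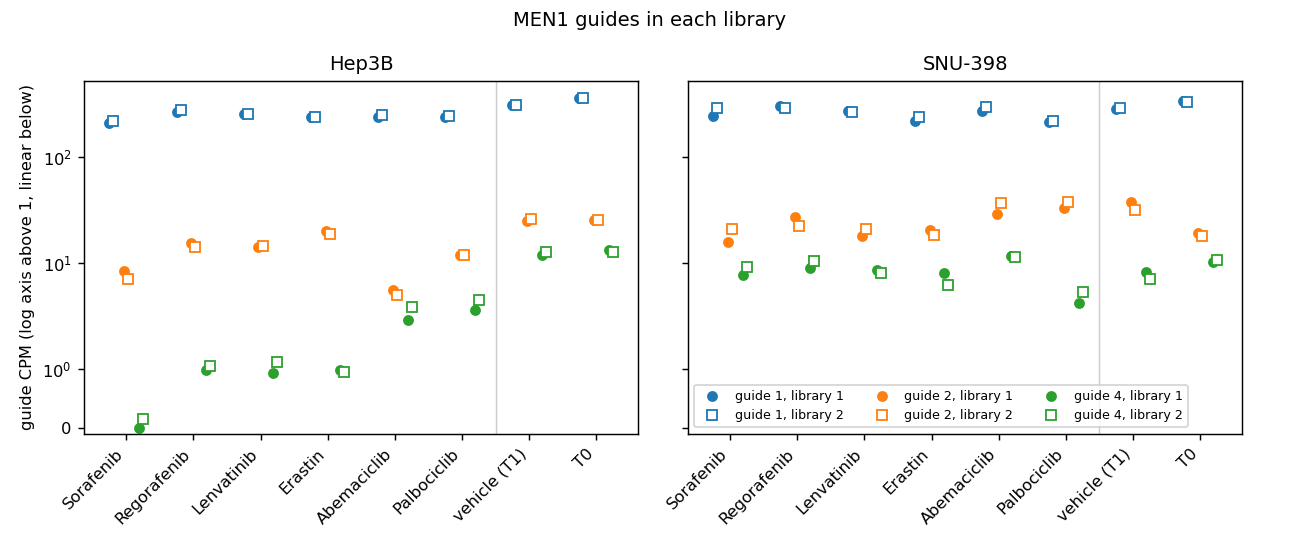
CPM of the well-counted MEN1 guides in every screen library of Hep3B and SNU-398, inhibitor groups first and then T1 and T0, each point being 1 library. In Hep3B all 3 guides are lower in every inhibitor library than in T1, while in SNU-398 the inhibitor and T1 ranges of each guide overlap.

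KMT2A, the MLL1 methyltransferase, was below T1 with Erastin (-2.57), Abemaciclib (-3.56) and Palbociclib (-3.64) in SNU-398, and in no screen of Hep3B, where NormZ was -1.34 to -0.33. The SNU-398 Erastin value was -2.53 without library 2. Guide 1 had 35.3 and 34.3 CPM with Palbociclib and 41.4 and 40.1 CPM with Abemaciclib in SNU-398, against 60.8 and 64.9 CPM in T1. Guide 2 had 0.727 and 0.819 CPM with Palbociclib, against 3.18 and 3.81 CPM in T1. Guide 2 was higher than T1 with Lenvatinib, at 5.43 and 5.49 CPM, so the guides of KMT2A did not move alike in every screen.

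RBBP5, a WD-repeat protein of the shared core, was below T1 with Sorafenib (-2.84), Lenvatinib (-3.38) and Abemaciclib (-3.12) in Hep3B. Palbociclib fell just short of the threshold at -2.32. Its guide 2 had 27.6 and 33.1 CPM with Lenvatinib, 30.5 and 32.6 with Abemaciclib and 31.1 and 33.2 with Sorafenib, against 79.7 and 81.3 CPM in T1. With Regorafenib it had 73.3 and 78.9 CPM, close to T1. Guide 4 was at 0 in all 12 inhibitor libraries, but T1 held only 42 and 24 counts, which gives bounds of at least 18.6-fold to 25.5-fold lower. In SNU-398 RBBP5 was past the threshold in no screen, with NormZ of -1.99 to 0.35. The lowest of these was the Erastin value, which was -1.05 without library 2.

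Of the other core subunits, only ASH2L passed the threshold. ASH2L, which binds DPY30 and helps activate the enzyme, gave the only value above T1, 2.37 with Erastin in Hep3B. Its guide 2 had 73.4 and 75.4 CPM there, against 38.9 and 35.2 CPM in T1, while with Sorafenib it had 12.3 and 13.2 CPM. In SNU-398 ASH2L was at -1.77 with Erastin, and at -1.52 without library 2. WDR5, which docks the enzyme on the core, ranged from -0.73 to 1.18, with 0.03 for Erastin in SNU-398 and -0.47 without library 2. It had 1 well-counted guide in Hep3B and none in SNU-398. DPY30 ranged from -0.66 to 0.47, with -0.35 for Erastin in SNU-398 and -0.33 without library 2, and had no well-counted guide in either line. Its guide 3 in Hep3B had no count with Sorafenib or Lenvatinib and 2 and 0 counts with Abemaciclib, against 38 and 14 counts in T1, while Regorafenib had 48 and 18 counts.

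The SETD1 enzymes and CXXC1 stayed within the threshold in all screens. SETD1A, a catalytic subunit, ranged from -0.93 to 1.91 in Hep3B and from -2.28 to -0.52 in SNU-398, nearest to the threshold with Lenvatinib. Its Erastin value in SNU-398 was -0.52, and -1.18 without library 2. In Hep3B its guides differed: guide 1 had 13.6 and 12.9 CPM with Regorafenib and 0 with Sorafenib, against 3.01 and 3.47 CPM in T1, whereas guide 2, with 97.7% of the T1 counts, had 149 and 150 CPM with Regorafenib, against 134 and 127 CPM in T1. SETD1B, the other catalytic subunit, ranged from -1.04 to 1.67, with 0.17 for Erastin in SNU-398 and 0.21 without library 2. CXXC1, which binds unmethylated CpG, ranged from -2.19 to 1.23, and was -2.29 with Erastin in SNU-398 without library 2.

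Genes near these complexes were read from lists grouped by function, to be set beside the 1.68% of all values below T1 and 0.839% above. Of H2B ubiquitination and PAF1 complex genes, which act ahead of H3K4 methylation, 10 of 132 values were below T1 and none above. WDR61, a PAF1 complex subunit, accounted for 5 of them, all in Hep3B: -2.34 with Sorafenib, -3.21 with Regorafenib, -2.60 with Erastin, -3.25 with Abemaciclib and -2.35 with Palbociclib. CTR9, the PAF1 scaffold, was below with Erastin in Hep3B (-2.65) and with Sorafenib (-3.01) and Lenvatinib (-2.75) in SNU-398. Other COMPASS subunits had 0 of 132 values below and 3 above, over 11 of 12 listed genes. The partners that WDR82 has outside COMPASS, in phosphatase and termination complexes, had 2 of 72 below and 2 above. In 3 or more screens, 0.377% of all genes were above T1, and no gene of these lists was.

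The 5 genes whose NormZ correlated most with that of WDR82 over the 12 screens were TNFAIP2 (Pearson r = 0.89), ACLY (0.89), PLEKHG5 (0.87), CLK3 (0.86) and MAP2 (0.85). Only the pattern over screens was alike. TNFAIP2, PLEKHG5 and MAP2 were below T1 in 1 screen each and ACLY and CLK3 in 0, against 10 for WDR82. They are the highest coefficients picked from 18025 genes, and no test was made of them. These coefficients describe 12 values that share T1 libraries within each line. The other 9 subunits ranged from -0.05 for MEN1 to 0.45 for WDR5. Over the alternatives the coefficients ran from 0.82 to 0.91 for TNFAIP2, 0.30 to 0.90 for ACLY, 0.82 to 0.90 for PLEKHG5, 0.62 to 0.92 for CLK3 and 0.72 to 0.85 for MAP2, lowest for ACLY and CLK3 with well-counted guides alone.

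Growth without inhibitor was read from T1 against T0. Counts summed over the guides of a gene were fitted by edgeR over all genes. T1 also enters the inhibitor values that were known when the genes were picked, so the values are a description and no p is printed. WDR82 had 21.2 and 21.7 CPM in T1 against 27.6 and 26.0 CPM in T0 of Hep3B, a log2 fold change of -0.33 ± 0.15 (SE). In SNU-398 it had 17.7 and 17.9 CPM in T1 against 24.1 and 22.9 CPM in T0, or -0.40 ± 0.14. MEN1 changed by -0.19 and -0.12. The summed counts of both genes were lower in T1 in each line, without overlap between libraries, but single guides differed. Guide 1 held 86.7% of the MEN1 counts in T1 of SNU-398, and guide 2 was higher there, with 37.2 and 31.5 CPM in T1 against 19.2 and 18 CPM in T0.

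Of the other 8 genes, 2 were higher and 3 lower in T1 of Hep3B at an adjusted p under 0.05, beside 29.1% and 33.5% of all genes. In SNU-398, 1 was higher and 2 were lower, beside 19.2% and 20% of all genes. These counts lay near the shares of all genes and, for the reason given above, describe the 8 genes without testing them. The median log2 fold changes of the 8 genes were -0.28 and -0.03, against -0.04 and -0.01 for all genes. The summed counts of ASH2L were higher in both lines, at 47.3 and 43.9 CPM in T1 against 31.0 and 34.7 CPM in T0 of Hep3B (log2 fold change 0.48 ± 0.08, SE), and by 0.35 ± 0.08 in SNU-398. Its guides differed in Hep3B. Guides 1 and 2 were higher in T1, with guide 2 holding 76.9% of the T1 counts. Guide 3 fell from 1.725 and 2.78 CPM in T0 to 0 and 0.165 CPM in T1. Guide 4 fell from 0.690 and 0.730 CPM to 0. In SNU-398 guide 2 held 90.1% of the T1 counts, and guide 3 was lower in T1. The summed counts of SETD1A were lower in both, with -0.25 ± 0.05 in Hep3B and -0.66 ± 0.06 in SNU-398. There they were 83.8 and 84.2 CPM in T1 against 135 and 131 CPM in T0. Guide 2 held 97.7% of the SETD1A counts in T1 of Hep3B and 94.8% in SNU-398. Guide 1 was higher in T1 of Hep3B (log2 ratio 0.44), while its guides 3 and 4 had no count in T1. In SNU-398 guide 4 was higher (0.75), guide 1 was lower (-0.34) and guide 3 had no count in T1. The summed counts of RBBP5 were lower in Hep3B, at 79.5 and 81.4 CPM in T1 against 111.6 and 108 CPM in T0 (-0.45 ± 0.06). In SNU-398 they were at -0.03 ± 0.05. Guide 2 held 94.4% of the RBBP5 counts in T1 of Hep3B and 97.3% in SNU-398. The other SNU-398 guides had few counts. Guide 3 had 0.728 and 1.04 CPM in T1 against 3.30 and 3.60 CPM in T0. Guide 4 had 1.27 and 1.73 against 3.08 and 3.38 CPM, and guide 1 was higher in T1. SETD1B was at -0.31 ± 0.10 and KMT2A at 0.23 ± 0.07 in Hep3B. Guide 1 held 92.5% of the KMT2A counts in T1 there. Guides 1 and 2 of KMT2A were higher in T1, while its guides 3 and 4 were counted in T0 and had no count in T1. WDR5 in SNU-398 had 0.817 and 0.344 CPM in T1, from only 18 and 4 counts, against 2.06 and 2.19 CPM in T0 (-1.73 ± 0.49).

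Some of the counted genes rested on 1 library. SETD1B in Hep3B was not past the threshold without T0 library 1 or T1 library 2, nor KMT2A without T1 library 1, nor WDR5 in SNU-398 without T1 library 2 or with Erastin library 2 in the fit. Single control guides spanned log2 ratios of T1 over T0 from -1.41 to 2.82 in Hep3B and from -1.02 to 1.43 in SNU-398, wider than most of these changes.

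**Figure D4:**
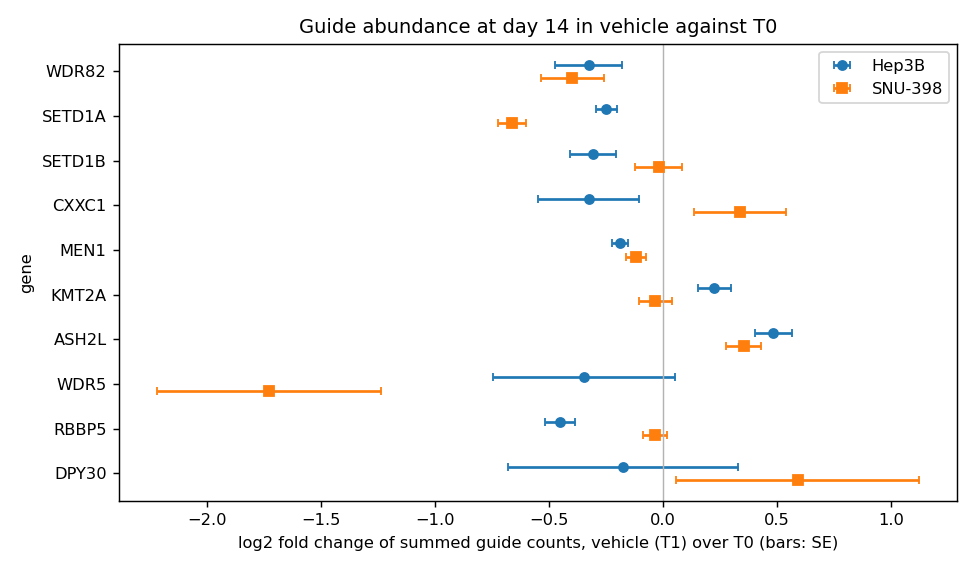
Log2 fold change of summed guide counts in T1 against T0 for the 10 genes in Hep3B and SNU-398, with standard errors from edgeR. ASH2L is above 0 and SETD1A below 0 in both lines, and WDR82 is at -0.33 and -0.40.

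RNA levels were compared between PSTK-KO and control Hep3B, whose libraries held 15404153 to 16851558 counts. PSTK itself had 0.650, 0.706 and 0.824 FPKM in the libraries labelled PSTK-KO, against 0.777, 0.828 and 0.668 FPKM in control libraries (log2 fold change -0.06, adjusted p = 0.84, edgeR). Counts over the whole gene do not check a deletion. Markers of the labelled line were nearly absent: of 10 hepatocyte and HCC markers only HNF4A reached 1 FPKM, and their sum was 2.30 to 2.84 FPKM in PSTK-KO and 3.92 to 4.69 FPKM in control libraries. Of 5 markers each, none for blood, 2 for fibroblast and none for endothelium reached 1 FPKM. Their sums were 0.280 to 0.641 against 0.513 to 0.757 FPKM for blood, 4.59 to 4.99 against 6.69 to 7.58 FPKM for fibroblast and 1.01 to 1.21 against 1.57 to 1.70 FPKM for endothelium, PSTK-KO against control. Their part in the results was not tested.

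All 10 genes were among the 15370 tested, and none was called, beside 15.6% of all genes higher and 17.2% lower. DESeq2 called none either, and 1 had an unadjusted p under 0.05. Log2 fold changes ran from -0.09 to 0.14 with a median of 0.01, against 0.00 for all genes. In 3 of 10 genes the groups did not overlap, beside 42.8% of all genes. WDR82 had 16.9, 20.2 and 19.6 FPKM in PSTK-KO and 17.4, 19.0 and 17.2 FPKM in control libraries. MEN1 had 14.7, 13.7 and 15.1 FPKM in PSTK-KO and 15.3, 14.0 and 14.2 FPKM in control libraries. Both genes overlapped between groups.

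KMT2A came nearest to a call. It had 3.81, 4.0 and 3.77 FPKM in PSTK-KO and 3.44, 3.74 and 3.27 FPKM in control libraries, without overlap, and a log2 fold change of 0.14 ± 0.06 (SE, adjusted p = 0.0536, edgeR). Over the alternatives its adjusted p ran from 0.00835 to 0.301, the lowest being without control replicate 2, where the log2 fold change was 0.20, and it was 0.0469 with RLE scaling in edgeR. RBBP5 followed, at 12.8, 13.2 and 14.0 FPKM in PSTK-KO and 12.1, 12.3 and 12.2 FPKM in control libraries (0.13, adjusted p = 0.128, edgeR), and CXXC1 had a log2 fold change of 0.11 (adjusted p = 0.272, edgeR).

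In control libraries the levels per gene length spanned 11.9-fold. WDR5 was highest, at 42.6 ± 1.26 FPKM in PSTK-KO and 41.6 ± 1.51 FPKM in control (SD, n = 3 each). It was followed by SETD1B at 18.9 ± 1.07 and 19.7 ± 0.554 FPKM, WDR82 at 18.9 ± 1.75 and 17.9 ± 0.974 FPKM, and MEN1 at 14.5 ± 0.727 and 14.5 ± 0.696 FPKM, PSTK-KO and control. RBBP5 (13.3 and 12.2 FPKM), DPY30 (9.85 and 9.87), SETD1A (8.75 and 9.30), CXXC1 (9.70 and 8.99), ASH2L (6.47 and 6.59) and KMT2A (3.86 and 3.49) came after. Among neighbours in the control order, only DPY30 with SETD1A and SETD1A with CXXC1 had overlapping ranges. GLYCTK overlaps WDR82 (62 to 100 counts) and MEMO1 overlaps DPY30 (79 to 102 counts), and the strand setting of the counting was not given in the sources used here.

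**Figure D5:**
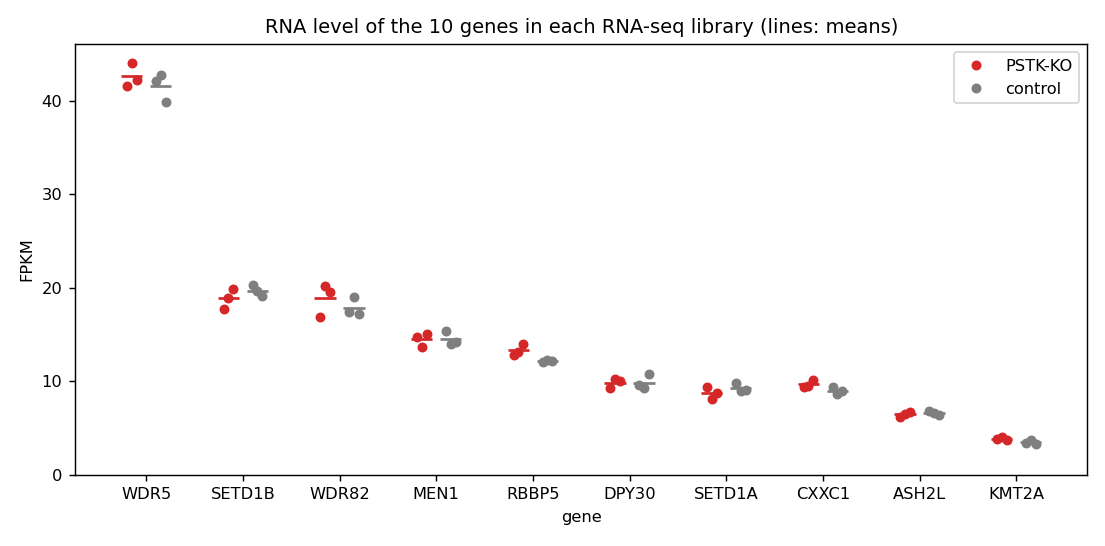
FPKM of the 10 genes in 3 PSTK-KO and 3 control libraries of Hep3B, each point being 1 library, with group means. WDR5 is highest and KMT2A lowest in both groups, and none of the 10 genes was called.

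Around them, the list of genes known as menin or MLL1 targets had 4 higher and 4 lower of 15 tested, with a median log2 fold change of 0.00. Over all genes 15.6% were higher and 17.2% lower, and these shares also stand beside the lists that follow. Higher in PSTK-KO were the growth genes MYC (0.34, adjusted p = 8.7e-07, edgeR) and CCND1 (0.29, adjusted p = 6.67e-06, edgeR) and the homeobox gene HOXA3 (0.62), among others. Lower were JUND (-0.40, adjusted p = 5.99e-08, edgeR), a transcription factor bound by menin, the cell cycle inhibitors CDKN2C (-0.29) and CDKN1B (-0.17), and PBX3 (-0.37). The called targets thus went in both directions, as the called genes of the whole RNA-seq did. Of the partners of WDR82 outside COMPASS, 2 of 6 were higher (PPP1CC 0.19, TOX4 0.21) and 3 lower (PPP1R10 -0.22, PPP1CB -0.16, ZC3H4 -0.18). Other COMPASS subunits had 1 of 12 higher (KDM6A, 0.21) and 1 lower (BOD1L1, -0.23), and H2B ubiquitination and PAF1 genes 1 of 11 higher (WAC, 0.15) and 2 lower (PAF1 -0.16, WDR61 -0.20). Of the list genes named here, CDKN1B and ZC3H4 were called in 5 of 11 alternatives, PAF1 in 4, WDR61 in 3, PPP1CB, TOX4 and WAC in 7, KDM6A in 8 and BOD1L1 in 10, and the others in all 11. DESeq2 lost the calls of CDKN1B, PAF1 and WDR61, whose highest adjusted p over the alternatives were 0.202, 0.123 and 0.294.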

How the data were processed

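CRISPR guides were counted in 32 screen libraries and gene RNA in 6 RNA-seq libraries. The screen counts deposited by the authors are whole numbers for each guide, from Bowtie2, whose version is not given in the sources used here. For RNA-seq, the deposited gene counts came from HISAT2 2.0.5 and featureCounts 1.5.0-p3, as the submitters' processing notes name them. FPKM were deposited by the authors too, and within a library they were proportional to counts per gene length. A mouse build, mm9, is named in the labels, but identifiers and positions in the RNA-seq counts are those of human genes on GRCh38. The build of the guide positions is not given in the sources used here. Of 63872 guides matched by symbol and chromosome, 10.6% lay inside their gene on GRCh38. Columns of the authors' own group means, fold changes and p-values were not used.

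NormZ followed the steps of DrugZ in Python 3.11.15: counts scaled to 1e+07, a pseudocount of 5, each inhibitor library against the same-numbered T1 library, windows of 1000 guides, and a threshold of p under 0.01. Guide ratios were ranked among guides with a mean T1 count of at least 30. Counts were tested with edgeR 4.0.16 in R 4.3.3 (TMM, filterByExpr, quasi-likelihood test, Benjamini-Hochberg adjustment over all tested genes, called at 0.05). The contrast of T1 with T0 was fitted on counts summed per gene in all libraries of a line, without Erastin library 2 of SNU-398, and its p-values are not printed. DESeq2 1.42.0, limma 3.58.1 on log2(FPKM + 1), other scalings, filters and left-out libraries were alternatives. The NormZ steps and the edgeR and DESeq2 fits were tested on simulated data.

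The 10 genes and all gene lists were chosen with earlier results of these data known. The 10 genes were always named. Named from the lists were up to 4 called genes with the smallest adjusted p in the RNA-seq, any called gene against the rest of its list, list genes past the NormZ threshold one way in 3 or more of 12 screens, and the 5 genes with NormZ most correlated with WDR82. Not every gene that this rule covers is reported here. A count of 0 allows up to 3 counts, and such bounds cover counting error only. Library totals ran from 11198022 to 46376708 counts in the screens and from 15404153 to 16851558 in the RNA-seq.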

Additional observations from a re-analysis of the deposited data

Results flagged for a closer look

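For some subunits the summed guides moved one way in every library of one line and the opposite way in every library of the other. These differences between lines were not tested. CXXC1 guides in T1 against T0 had a log2 fold change of -0.33 in Hep3B and 0.34 in SNU-398, with neither called. The remaining values are log2 ratios of summed guide CPM, inhibitor over T1. SETD1A was at 0.29 in Hep3B and -0.41 in SNU-398 with Regorafenib, 0.59 and -0.98 with Lenvatinib, and 0.068 and -0.20 with Abemaciclib. The Hep3B sums follow guide 2, which held 97.7% of the SETD1A counts in T1. Guide 1 was higher with Regorafenib too, but lower with the other 2 inhibitors. It had 0 and 0.082 CPM with Lenvatinib and 0.165 and 0 with Abemaciclib, against 3.01 and 3.47 CPM in T1. SETD1B was at 0.40 in Hep3B and -0.24 in SNU-398 with Palbociclib. CXXC1 was at 0.43 in Hep3B and -0.89 in SNU-398 with Regorafenib. ASH2L was at 0.22 in Hep3B and -0.14 in SNU-398 with Lenvatinib, and at 0.86 and -0.41 with Erastin, where SNU-398 includes the library that stood apart. Its summed ASH2L guides there were 38.0 CPM in Erastin library 1 and 38.3 CPM in library 2, against 52.7 and 48.9 CPM in T1. WDR5 was at -0.28 in Hep3B and 2.61 in SNU-398 with Regorafenib, and at -4.85 and 2.72 with Lenvatinib, the first being a bound from 3 counts over both libraries. These WDR5 ratios rest on few counts. In SNU-398 T1 held 18 and 4 counts over all its guides, and no guide was well counted. In Hep3B T1 held 66 and 30 counts, all of guide 1. RBBP5 was at -1.44 in Hep3B and 0.073 in SNU-398 with Abemaciclib.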

How the results depend on the processing

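WDR82 was below T1 in 8 to 10 screens under every alternative run. MEN1 was below in 8 screens, in 4 with guides of at least 30 mean T1 counts, and in 6 with a pseudocount of 1 or median-of-ratios scaling, while all 10 genes together had 18 to 27 values below, against 24. Leaving out a replicate gave 9 screens for WDR82 and 6 to 9 for MEN1. Same-numbered libraries did not deviate together (r of -0.0035 to 0.0815 in the RNA-seq, and -0.0320 to 0.0375 in the screens). Without the replicate block in NormZ the counts were 9, 8 and 23, and with the replicate block 5 genes were called in T1 against T0 of Hep3B and 3 in that of SNU-398. The RNA-seq then gave 1 (KMT2A, adjusted p = 0.0172, edgeR), with 2655 genes higher and 2892 lower overall. KMT2A was also the 1 gene called in the RNA-seq with RLE scaling, and leaving out replicates gave 0 to 1. Over all genes, limma on FPKM called 1486 higher and 1766 lower, against 2395 and 2640. In SNU-398, T1 against T0 called 1137 higher and 1210 lower with Erastin library 2, against 3460 and 3608, and 2261 to 2652 higher and 2232 to 2670 lower without a T0 or T1 replicate. The causes of these shifts were not tested.

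Reversed were only log2 fold changes that were not called. In the RNA-seq these were MEN1 at 0.035 without PSTK-KO replicate 2 and 0.032 without control replicate 1 (-0.036 to 0.035 over the left-out replicates), ASH2L at 0.0033 without PSTK-KO replicate 1 (-0.059 to 0.0033), and DPY30 at 0.00062 with DESeq2, 0.00084 with RLE, 0.038 without PSTK-KO replicate 1 and 0.064 without control replicate 3 (-0.050 to 0.064). In T1 against T0 they were DPY30 in Hep3B at 0.089 without T0 replicate 1 (-0.44 to 0.089), and in SNU-398 SETD1B at 0.012 and KMT2A at 0.0012 without T0 replicate 1, and 0.029 and 0.021 without T1 replicate 1 (-0.055 to 0.029 and -0.080 to 0.021). WDR61 was below T1 in 3 screens and CTR9 in 1 without replicate 1, and KDM5C in 1 with well-counted guides. Low guide counts limit DPY30 and WDR5 most.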

Other observations

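Over all genes 1.68% of screen values were below T1 and 0.839% above. H3K4 demethylases, which remove the mark that COMPASS places, had 3 of 84 screen values below T1 and none above. All 3 were of KDM5C, with NormZ of -2.64 with Abemaciclib and -2.53 with Palbociclib in Hep3B and -3.00 with Palbociclib in SNU-398. In the RNA-seq, 0 of 6 tested demethylase genes were called, beside 15.6% of all genes higher and 17.2% lower. Methyltransferases of other histone H3 sites had 1 of 156 screen values below and 1 above, and in the RNA-seq 1 of 13 was lower in PSTK-KO, DOT1L (log2 fold change -0.24, adjusted p = 0.00156, edgeR), the H3K79 methyltransferase. The listed targets of menin or MLL1 had 1 of 180 screen values below and 3 above.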
